A study of Mus musculus with 16 samples.

Results

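The ATP-binding cassette (ABC) transporter family was followed in the lungs of female A/J mice, a strain prone to lung tumours, that had received a tobacco carcinogen, a selenium diet, both or neither. Members were all array probes, control spots aside, whose gene name was Abc followed by a subfamily letter from a to g and a number. Abca3, the surfactant lipid transporter, was left out. The rule gave 48 genes on 90 probes, out of 27706 gene names on the array, and each gene was read from its brightest probe. The rule used gene names and probe brightness, not measured changes, and was set with earlier results of these data known.

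Untreated mice received neither agent. NNK mice received 1 intraperitoneal injection of the tobacco nitrosamine NNK, given in the labels as 10 uM in 0.2 mL saline, and were killed 13 days later. SECY mice ate 15 ppm selenocystine, a seleno-amino acid, for 10 days. NNK+SECY mice received the same injection and began that diet 3 days after it. All mice, untreated ones included, ate AIN-76 diet with 0.35 ppm selenium. Each group held 4 mice labelled as biological replicates. RNA of the whole lung of 1 mouse was labelled with Cy5 and hybridised with 1 Cy3-labelled reference, an equal mix of the 4 untreated RNAs, with no dye swap. Values are log2(Cy5/Cy3), so an untreated array is partly compared with itself. In such bulk tissue, fewer cells of a type and less RNA per cell cannot be told apart.

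ABC proteins use ATP to move lipids, sterols, peptides, bile salts, drugs and glutathione or glucuronide conjugates across membranes. Members of subfamilies A and G mostly move lipids and sterols, B holds P-glycoprotein, bile transporters and mitochondrial carriers, C holds the multidrug resistance proteins (MRPs), and D works in peroxisomes and lysosomes. The E and F proteins have no membrane part and act on ribosomes. In lung, efflux pumps sit in airway and alveolar epithelium and in vessels, and several are described targets of NRF2, the factor that switches on detoxification genes.

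The 3 upstream sequences from RefSeq (GRCm38.p6) show what lies before the start site of both called members that have an entry, Abcb6 and Abca8a, and of Abcc4, an efflux pump whose upstream sequence holds the core of the antioxidant response element, the site NRF2 binds. Each is the 250 bases before the gene's start, 5′ to 3′ on the gene's strand, which is the minus strand for all of them. Capitals mark the core, TGACNNNGC, on either strand.
Abcb6, chr1:75180393-75180642: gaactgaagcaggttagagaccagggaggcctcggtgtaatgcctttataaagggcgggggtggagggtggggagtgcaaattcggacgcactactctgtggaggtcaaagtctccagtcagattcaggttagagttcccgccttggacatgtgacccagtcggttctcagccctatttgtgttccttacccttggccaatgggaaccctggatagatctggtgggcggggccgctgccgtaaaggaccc
Abca8a, chr11:110095938-110096187: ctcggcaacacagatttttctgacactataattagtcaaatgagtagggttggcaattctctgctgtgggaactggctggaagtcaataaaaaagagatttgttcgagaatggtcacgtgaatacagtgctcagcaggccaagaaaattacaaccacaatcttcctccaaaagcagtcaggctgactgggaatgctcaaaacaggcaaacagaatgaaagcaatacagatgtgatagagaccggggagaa
Abcc4, chr14:118706220-118706469: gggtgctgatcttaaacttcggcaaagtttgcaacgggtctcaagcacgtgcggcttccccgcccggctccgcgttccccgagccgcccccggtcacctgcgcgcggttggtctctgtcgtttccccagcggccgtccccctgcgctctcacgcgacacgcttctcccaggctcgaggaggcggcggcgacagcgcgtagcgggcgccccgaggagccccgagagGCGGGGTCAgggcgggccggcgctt
The Abcc4 stretch holds 1 core, on the opposite strand, and the Abcb6 and Abca8a stretches hold none of these letters. Of the 48 members, 36 had entries, 43 entries in all, and 4 of the 43 held the core, against 10.2% of 32851 mouse entries of the same length. The 4 belonged to Abcc2, Abcc4 (both of its entries) and Abcc10. The xenobiotic response element core, GCGTG on either strand, stood in 11 of the 43 and in 28.2% of all. Abcc1 was named only.

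Each array's background-corrected median signal lay between 71.2 and 104.8 in Cy5 and between 67.5 and 93.4 in Cy3. The share of probes well above background in Cy5 was 66.3% to 72.6% on the 8 arrays without selenocystine and 75.0% to 79.3% on the 8 with it. Per the file headers, Untreated and NNK arrays shared 1 set of slides and SECY and NNK+SECY arrays another, and the NNK and NNK+SECY arrays were scanned on one day and the rest on another. Diet and slide set therefore cannot be told apart, nor can NNK and scan day. All 9 alveolar type 2 markers and all 6 club cell markers passed the detection filter described next. Liver genes were far above the other arrays on NNK+SECY 3 and SECY 4, and the member calls, the liver-type transporters and the B and G subfamily means are given with and without NNK+SECY 3. SECY 3 departed most from its group over all tested genes. Its array weight in limma was 0.19, against 0.53 to 2.12 on the other arrays. Its mean correlation with the other arrays of its group was 0.04, and the next lowest was 0.12 (Untreated 1).

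A gene entered the test if any group had its probe well above background on each of its 4 arrays. This held for 37 of the 48 members and for 21248 of the 27706 gene names, and 33 members were above background on all 16 arrays. By subfamily, 8 of 14 A members, 9 of 10 B members, 7 of 10 C members, all 4 D members, the single E member, all 3 F members and 5 of 6 G members were tested. The 11 others were Abca4, Abca6, Abca12, Abca13, Abca14, Abca16, Abcb5, Abcc2, Abcc10, Abcc12 and Abcg3, and 7 of them were not well above background on any array. Among them Abcc2, the MRP2 pump of apical membranes, was above background on 0 Untreated, 0 NNK, 2 SECY and 3 NNK+SECY arrays. In the same order Abca4 was so on 3, 3, 1 and 3 arrays and Abca6 on 0, 1, 1 and 2. Over all probes the share above background was also higher on the selenocystine arrays.

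Of the 37 tested members, 2 were called higher in SECY than in Untreated lungs and none lower, in a comparison where diet and slide set cannot be told apart. Abcb6, a transporter of the outer mitochondrial membrane and other membranes known for carrying porphyrins, was 1.30-fold higher in SECY than in Untreated lungs. Abcc1, the MRP1 pump that exports glutathione conjugates and leukotriene C4, was 1.18-fold higher. The test was limma on all 16 arrays with Benjamini-Hochberg adjustment over all genes, called at an adjusted p under 0.05. It called 59 of 21242 genes, which is 0.278%, with 0.212% called higher and 0.0659% lower. With selenocystine added to NNK, where the same holds, 3 members were called: Abcb6 and Abcc1 were again higher, and Abca8a was lower. That comparison, NNK+SECY against NNK, called 1.75% of genes, 0.306% higher and 1.44% lower. It shares no array with SECY against Untreated.

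The ratio of Abcb6 in the 4 Untreated lungs was -0.04, -0.09, 0.16 and 0.02. In the NNK lungs it was 0.08, 0.00, 0.11 and 0.07. It was 0.38, 0.46, 0.47 and 0.26 in the SECY lungs and 0.29, 0.40, 0.34 and 0.30 in the NNK+SECY lungs. Every lung from a selenocystine diet was thus above every lung without it. The group means were 0.01 ± 0.11 (SD, n = 4) for Untreated, 0.06 ± 0.05 for NNK, 0.39 ± 0.10 for SECY and 0.33 ± 0.05 for NNK+SECY. The difference was 0.38 ± 0.06 (SE) for SECY against Untreated (limma adjusted p = 0.0060) and 0.27 ± 0.06 for NNK+SECY against NNK (limma adjusted p = 0.0229). NNK+SECY against Untreated, which shares its controls with the first, gave 0.32 ± 0.06 (limma adjusted p = 0.0093). The mean log2 Cy5 levels behind that value, 7.03 in NNK+SECY and 6.91 in Untreated, lay closer together than the ratios. The array has 1 probe for this gene.

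The size of the Abcb6 change depended on the processing. In the authors' deposited table of log2 ratios the SECY against Untreated difference was 0.71 and the NNK+SECY against NNK difference 0.48, and the call held in both. The Cy5 signal itself rose by 0.23 in SECY against Untreated while the Cy3 signal of the common reference differed by -0.15. In NNK+SECY against NNK almost all of the difference was in Cy5, with 0.25 in Cy5 and -0.02 in Cy3. The call for SECY against Untreated held without each of the 16 arrays in turn, and was lost where only the 8 arrays compared set the spread (limma adjusted p = 0.152). That for NNK+SECY against NNK was lost without NNK 2, NNK 4, NNK+SECY 2 or NNK+SECY 3, with limma adjusted p from 0.0628 to 0.0996.

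Abcc1 was likewise higher in every selenocystine lung, over a smaller range. Its ratio was -0.09, -0.04, -0.14 and -0.20 in Untreated lungs and -0.15, -0.15, -0.16 and -0.11 in NNK lungs. In SECY lungs it was 0.12, 0.13, 0.16 and 0.07, and in NNK+SECY lungs 0.03, 0.03, 0.01 and 0.16. All 8 lungs with selenocystine were above 0 and all 8 without it below 0. SECY exceeded Untreated by 0.24 ± 0.05 (SE, limma adjusted p = 0.0369) and NNK+SECY exceeded NNK by 0.20 ± 0.05 (limma adjusted p = 0.0315). NNK+SECY against Untreated was 0.17 ± 0.05 and missed the threshold (limma adjusted p = 0.0840).

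For Abcc1 the reference channel differed more than the mouse channel. In SECY against Untreated the Cy5 signal differed by 0.06 and the Cy3 signal by -0.18, and in NNK+SECY against NNK by 0.09 and -0.11. The reference RNA was the same on all arrays. The other 2 Abcc1 probes, both dimmer, gave 0.23 and 0.10 for SECY against Untreated and 0.14 and 0.07 for NNK+SECY against NNK. The first call was kept under 11 of 28 alternative settings and was lost without any 1 of 11 arrays (Untreated 1, 3 and 4, NNK 1 to 4, SECY 2 and 3, NNK+SECY 1 and 2), with limma adjusted p up to 0.126. The second was kept under 15 of 28 and was lost without any 1 of 7 arrays (NNK 1 to 4, NNK+SECY 1, 2 and 4), with limma adjusted p up to 0.123. The mean over all probes passed in neither (limma adjusted p = 0.159 and 0.287).

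**Figure D1:**
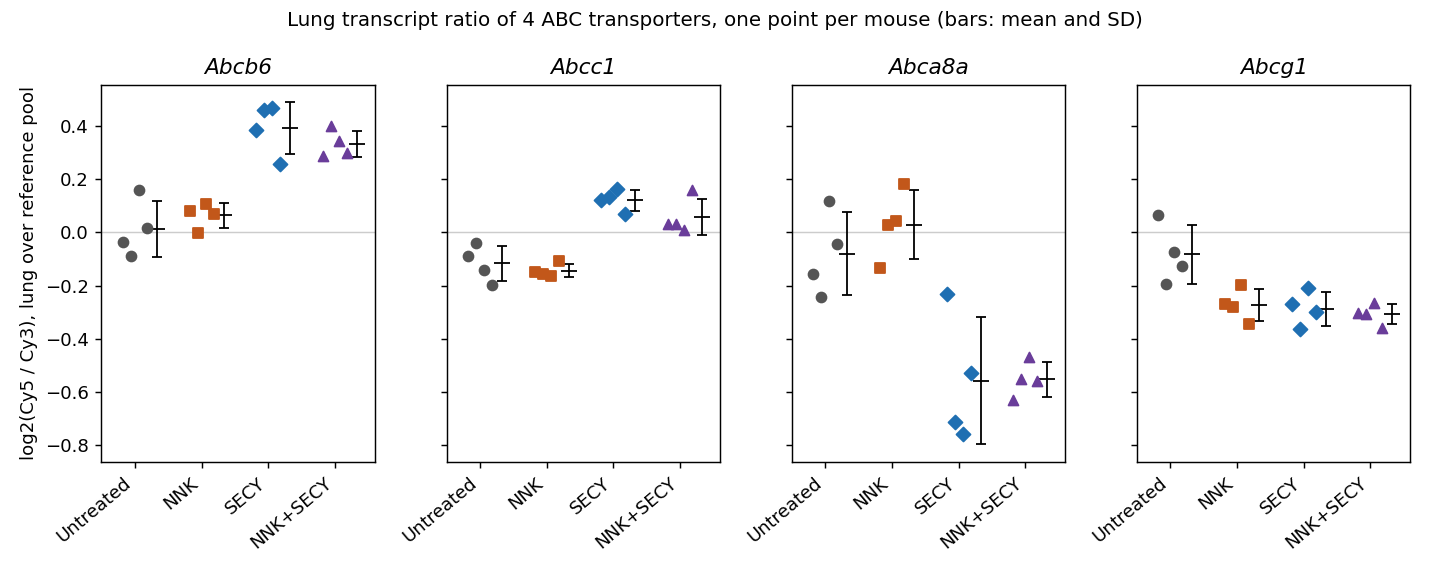
log2(Cy5/Cy3) of Abcb6, Abcc1, Abca8a and Abcg1 in each of the 4 mice of each group (points), with the group mean and SD beside them. Abcb6 lies between 0.26 and 0.47 in the 8 selenocystine lungs and between -0.09 and 0.16 in the others, while Abca8a lies between -0.76 and -0.23 in the selenocystine lungs.

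Abca8a, a lipid transporter of the A subfamily, moved furthest of the called members. Its ratio was -0.16, -0.24, 0.12 and -0.04 in Untreated lungs and -0.14, 0.03, 0.04 and 0.18 in NNK lungs. It was -0.23, -0.71, -0.76 and -0.53 in SECY lungs and -0.63, -0.55, -0.47 and -0.56 in NNK+SECY lungs. SECY 1 was the one selenocystine lung within the range of the Untreated group, and all 4 NNK+SECY lungs were below all lungs without selenocystine. The fall was 0.67-fold in NNK+SECY against NNK (-0.58 ± 0.10 SE, limma adjusted p = 0.0042). NNK+SECY against Untreated gave -0.47 ± 0.10 (limma adjusted p = 0.0278). That comparison called 2 members, Abcb6 higher and Abca8a lower, and 1.6% of genes, 0.537% higher and 1.06% lower. SECY against Untreated gave a like value, -0.48 ± 0.10, that missed the threshold (limma adjusted p = 0.0646) and passed without SECY 1 (-0.59, limma adjusted p = 0.0021).

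The Abca8a difference lay in the Cy5 channel, at -0.57 in Cy5 and 0.01 in Cy3 for NNK+SECY against NNK. That call held under all 28 alternatives. The call against Untreated held under 22 of 28 and was lost without Untreated 1, 3 or 4 or NNK+SECY 1, 2 or 4, with limma adjusted p up to 0.105. Abca8a lies in a row of A-subfamily genes in RefSeq, with Abca8b on one side and Abca9, Abca6 and Abca5 on the other. In NNK+SECY against NNK, Abca8b differed by 0.06 ± 0.05, Abca9 by 0.11 ± 0.06 and Abca5 by 0.06 ± 0.09, and none passed (limma adjusted p from 0.553 to 0.894). Abca6 was not tested. Abca8a and Abca8b are close copies, so the Abca8a probe, the only one for its gene, may also take up signal from its neighbour. Of the 8 fibroblast and smooth muscle markers, none was called. Their median difference was -0.22 in NNK+SECY against NNK, with 6 of 8 below 0, and their mean ratio ranged from -0.24 to -0.09 in NNK+SECY and from -0.09 to 0.10 in NNK. Their part in the Abca8a result was not tested.

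**Figure D2:**
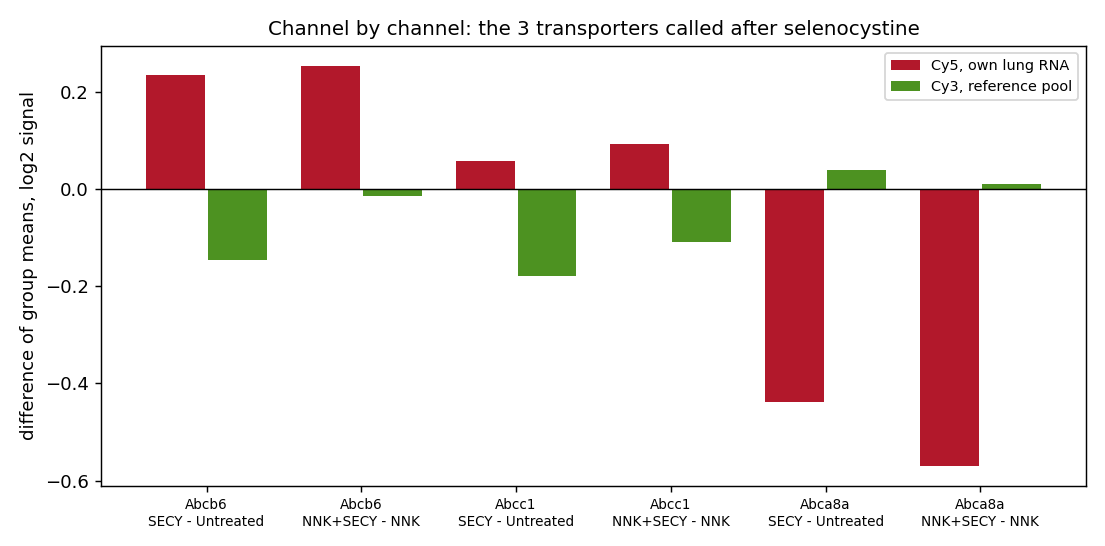
Difference of group means in log2 Cy5 signal (red, each mouse's own RNA) and log2 Cy3 signal (green, the shared reference) for the called members in SECY minus Untreated and NNK+SECY minus NNK. The Abca8a fall stands in Cy5 (-0.44 and -0.57), while for Abcc1 the Cy3 bars (-0.18 and -0.11) exceed the Cy5 bars.

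NNK alone moved no member past the threshold 13 days after the injection, in a comparison that called 68 of 21243 genes (0.32%), all higher. The tested members ran from -0.19 to 0.11, their median was 0.00, as was that of all genes, and 1 member, Abcg1, had an unadjusted limma p under 0.05, as 5.04% of genes did. NNK+SECY against SECY, the NNK effect on the selenocystine diet, called no member either, among 2 genes called in all (0.00942%). There 1 member had an unadjusted limma p under 0.05, against 6.14% of genes. The interaction, which asks whether the diet's effect differed with NNK, called 1 gene and no member (0.00471%). Its value was -0.11 ± 0.08 for Abcb6, -0.04 ± 0.07 for Abcc1 and -0.10 ± 0.15 for Abca8a, with 95% intervals of -0.29 to 0.06, -0.18 to 0.10 and -0.41 to 0.21 in that order.

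Abcg1, which loads cholesterol onto high-density lipoprotein and is abundant in alveolar macrophages, was lower in every treated lung than in every Untreated lung, but no comparison passed. Its ratio was 0.06, -0.19, -0.07 and -0.13 in Untreated lungs. It was -0.27, -0.28, -0.20 and -0.34 in NNK lungs, -0.27, -0.36, -0.21 and -0.30 in SECY lungs, and -0.30, -0.30, -0.27 and -0.36 in NNK+SECY lungs. The gap was narrow between Untreated 2 and NNK 3. Against Untreated the difference was -0.19 ± 0.06 for NNK, -0.20 ± 0.06 for SECY and -0.23 ± 0.06 for NNK+SECY (limma adjusted p = 0.340, 0.156 and 0.0535), and the 3 values share their controls. In NNK against Untreated, groups failed to overlap for 2 members, Abcb11 and Abcg1, and for 4.14% of all genes. On each of the 4 slides that held an Untreated and an NNK array, the NNK array was lower, by -0.33, -0.09, -0.13 and -0.22. The third value passed under 6 of 28 alternatives, among them without Untreated 2 or SECY 3, with limma adjusted p from 0.0165 to 0.174 over all of them.

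Of the 10 alveolar macrophage markers tested none was called. In SECY against Untreated 10 of 10 were below 0, with a median of -0.14, and the medians were -0.06 for NNK and -0.12 for NNK+SECY. The mean ratio of the list ranged from -0.09 to -0.01 in Untreated, -0.17 to -0.07 in NNK, -0.25 to -0.10 in SECY and -0.27 to 0.04 in NNK+SECY lungs. Its part in the Abcg1 values was not tested. Abca1, which passes cholesterol to lipid-poor apolipoprotein and shares the sterol sensor LXR with Abcg1, differed by 0.02 ± 0.09 in NNK and by -0.06 ± 0.11 in SECY against Untreated. It was 0.22 ± 0.09 in NNK+SECY against Untreated and 0.20 ± 0.09 against NNK, and neither passed (limma adjusted p = 0.476 and 0.501). SECY 1 and SECY 4 had no usable Abca1 value, so that group held 2. None of the genes of a sterol efflux and LXR list was called in the 6 comparisons, where 15 or, without Npc2, 14 of them had a value.

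None of the other drug efflux pumps passed. Abcb1a and Abcb1b, the rodent P-glycoproteins, differed by -0.09 ± 0.07 and 0.03 ± 0.06 in SECY against Untreated and by -0.06 ± 0.07 and 0.04 ± 0.06 in NNK+SECY against NNK. These paralogs are near-identical and may share signal. Abcg2, the breast cancer resistance protein, ranged from 0.01 to 0.14 in Untreated lungs, from -0.11 to 0.32 in NNK lungs, from -0.31 to 0.35 in SECY lungs and from 0.11 to 0.44 in NNK+SECY lungs. Its difference in NNK+SECY against NNK was 0.19 ± 0.12 (limma adjusted p = 0.664), and its other probe gave 0.13. The SECY range was set by SECY 3, at -0.31.

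Among the C subfamily, Abcc4 (MRP4, a cyclic nucleotide and prostaglandin exporter) was 0.11 to 0.19 in NNK lungs and 0.21 to 0.39 in NNK+SECY lungs, which do not overlap. The difference was 0.14 ± 0.05 and missed the threshold (limma adjusted p = 0.321), and a dimmer probe gave -0.03. In NNK+SECY against NNK, groups failed to overlap for 4 members detected on all 16 arrays, Abcb6, Abcc1, Abcc4 and Abca8a. They did so for 8.76% of all tested genes, a share not limited to genes detected on all 16 arrays. Abcc6 did not overlap either, but it entered the test through NNK+SECY alone, where its ratio was highest, and is not counted. Abcc3 (MRP3, a basolateral conjugate pump) differed by 0.12 ± 0.08 in SECY against Untreated and by 0.08 ± 0.08 in NNK+SECY against NNK. Abcc5 (MRP5, a nucleotide exporter) differed by -0.09 ± 0.06 and 0.04 ± 0.06. Abcc6, a liver and kidney protein whose loss leads to tissue calcification, was above background on all 4 arrays of NNK+SECY alone, against 1 of Untreated, 1 of NNK and 0 of SECY. Its mean log2 Cy5 level was not highest there, at 5.97 in Untreated, 6.03 in NNK, 5.91 in SECY and 6.01 in NNK+SECY. Its ratio in NNK+SECY against SECY differed by 0.05 ± 0.04 (limma adjusted p = 0.893). Abcc9, a regulatory subunit of potassium channels, was 0.04 ± 0.05 in NNK against Untreated and 0.08 ± 0.05 in NNK+SECY against SECY.

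Detoxification genes were looked up beside the members, in a list chosen with earlier results of these data known. No test compared that list with the members, not all of which are pumps. Of 19 tested genes of the NRF2 system and of conjugation, 10 were called higher in SECY against Untreated, 13 in NNK+SECY against Untreated, 12 in NNK+SECY against NNK and none lower, with medians of 0.45, 0.52 and 0.50. Over all genes, 0.212%, 0.537% and 0.306% were called higher in the same order. Nqo1, the quinone reductase, was 1.43 ± 0.13 higher in SECY than in Untreated (limma adjusted p = 2.6e-05). Gclc, which makes the first step of glutathione synthesis, was 0.50 ± 0.09 higher in NNK+SECY than in NNK (limma adjusted p = 0.0036). The median of the 37 members was 0.00 in SECY against Untreated and 0.05 in NNK+SECY against NNK, beside 0.00 for all genes in both. In NNK against Untreated no gene of the NRF2 list was called. None of the 6 xenobiotic receptor genes was called in any of the 6 comparisons.

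**Figure D3:**
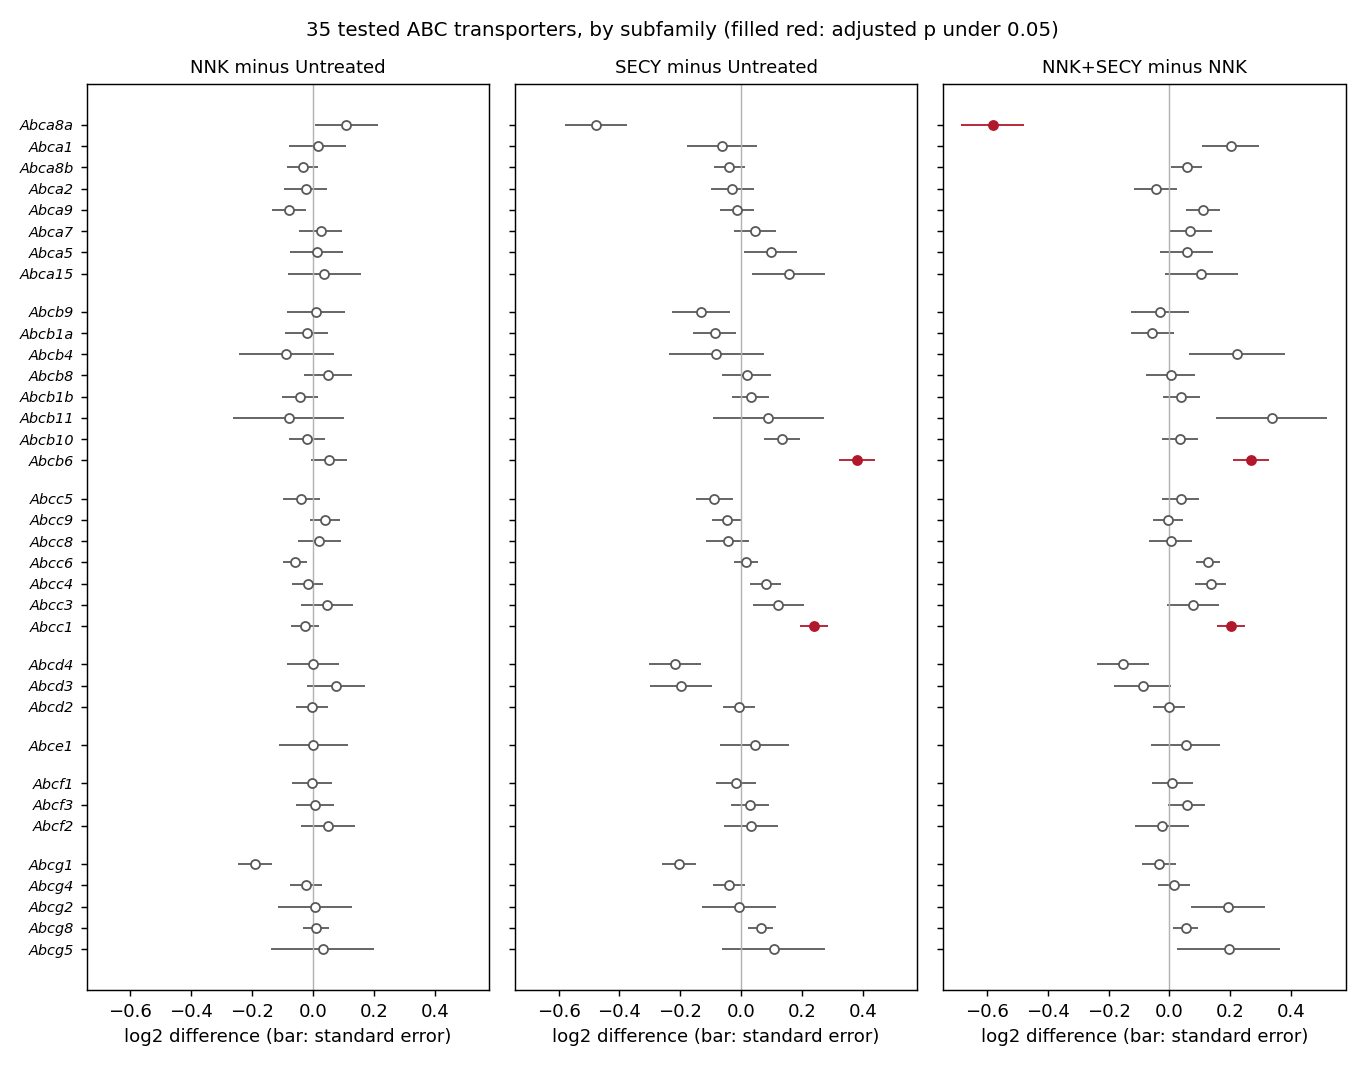
Fitted log2 difference (point) and standard error (bar) of 35 tested members, grouped by subfamily from A at the top to G at the bottom, for NNK minus Untreated, SECY minus Untreated and NNK+SECY minus NNK. Filled red points are the called members: none in the first panel, Abcb6 and Abcc1 in the second, and those with Abca8a in the third.

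Of the mitochondrial members, Abcb8 and Abcb10 did not pass. Abcb8, of the inner membrane, differed by 0.02 ± 0.08 in SECY against Untreated and 0.00 ± 0.08 in NNK+SECY against NNK. Abcb10, needed for haem synthesis in red cell precursors, was 0.13 ± 0.06 in SECY against Untreated (limma adjusted p = 0.545), and its other probe gave 0.03. No gene of 13 in a haem and iron-sulfur list was called in any of the 6 comparisons, and their median was -0.02 in both SECY against Untreated and NNK+SECY against NNK. The ferrochelatase gene Fech, for example, was -0.22 ± 0.14 in SECY against Untreated. Of the 5 erythroid markers tested, 5 were below 0 in SECY against Untreated (median -0.28, none called), and their mean ratio ranged from -0.62 to 0.23 in Untreated and from -0.76 to -0.22 in SECY lungs. Their part in the Abcb6 and Abcb10 values was not tested.

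No D member, which work in peroxisomes and lysosomes, passed. Abcd4, a lysosomal vitamin B12 transporter, was -0.22 ± 0.08 in SECY against Untreated (limma adjusted p = 0.457) and -0.15 ± 0.08 in NNK+SECY against NNK (limma adjusted p = 0.60). Abcd3, which takes branched-chain and long-chain acids into peroxisomes, was -0.20 ± 0.10 in SECY against Untreated, where SECY 2 had no usable value, and 0.19 ± 0.10 in NNK+SECY against SECY. Abcd2, a peroxisomal fatty acid importer, lay between -0.01 and 0.01 in the 6 comparisons. All 12 genes of a peroxisome list missed the threshold in the 6 comparisons. The soluble members Abce1, Abcf1, Abcf2 and Abcf3 lay between -0.06 and 0.06 in them, with standard errors up to 0.16, and none of 8 ribosome recycling genes was called.

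Cftr, Tap1 and Tap2, ABC transporters named outside the family's scheme, were tested and none was called. Against Untreated, Cftr was -0.20 ± 0.06 in NNK, -0.21 ± 0.06 in SECY and -0.23 ± 0.06 in NNK+SECY (limma adjusted p = 0.352, 0.199 and 0.0735). These values share their controls. In the same order Tap1 was 0.20, 0.07 and 0.11, and Tap2 was 0.10, -0.03 and -0.05. The 7 peptide loading genes that work with the TAP pair had a median of -0.16 in NNK+SECY against NNK, with 5 of 7 below 0 and none called. Of the 2 channel partners of Abcc8 and Abcc9, 1 was tested and was not called. Abcb9, a lysosomal peptide transporter, was -0.13 ± 0.10 in SECY against Untreated.

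Several transporters best known from liver stood apart on 1 lung. On NNK+SECY 3, Abcb11, the bile salt export pump, reached 1.17, Abcb4, which moves phosphatidylcholine into bile, 0.91, and Abcg5, a subunit of the sterol exporter, 0.93. Untested Abcc2 reached 0.45 there. On the 14 arrays other than NNK+SECY 3 and SECY 4, Abcb11 lay between -0.03 and 0.15, Abcb4 between -0.22 and 0.14, Abcg5 between -0.16 and 0.23 and Abcc2 between -0.11 and 0.21. Among the 16 arrays SECY 4 ranked 2 for Abcb11 (0.44) and for Abcb4 (0.24), and 4 for Abcg5 (0.18). Abcg8, the partner of Abcg5, was 0.07 on NNK+SECY 3 and between -0.06 and 0.12 on those 14.

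The liver genes Alb, Apoa2, Serpina1d and Fgb were highest on the same arrays. Their mean ratio was -1.20, -1.09, 1.12 and -0.65 in Untreated lungs and -0.95, -0.69, 0.76 and -0.52 in NNK lungs. It was -0.94, -0.96, -0.19 and 2.45 in SECY lungs and -1.07, 1.35, 2.84 and -0.96 in NNK+SECY lungs. Thus 5 of the 16 lungs were above 0, in all 4 groups, and the highest values were those of NNK+SECY 3 and SECY 4. Apoa1 and Ttr, on 4 and 3 arrays above background, were not tested. The part of these genes in the transporter values was not tested. The 6 skeletal muscle markers averaged 0.79 on NNK+SECY 3 and 0.60 on NNK+SECY 1, against -0.38 on the lowest array of that group.

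With all arrays, Abcb11 was 0.34 ± 0.18 higher in NNK+SECY than in NNK, Abcb4 0.22 ± 0.16 and Abcg5 0.19 ± 0.17, and none passed (limma adjusted p from 0.592 to 0.791). Without NNK+SECY 3 the same differences were 0.06 ± 0.08, -0.01 ± 0.08 and -0.05 ± 0.09. Without that array 2 members were called in NNK+SECY against NNK, Abca8a and Abcc1, and Abcb6 was not (0.26 ± 0.07, limma adjusted p = 0.0636). The members called in SECY and in NNK+SECY against Untreated were the same with and without it.

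**Figure D4:**
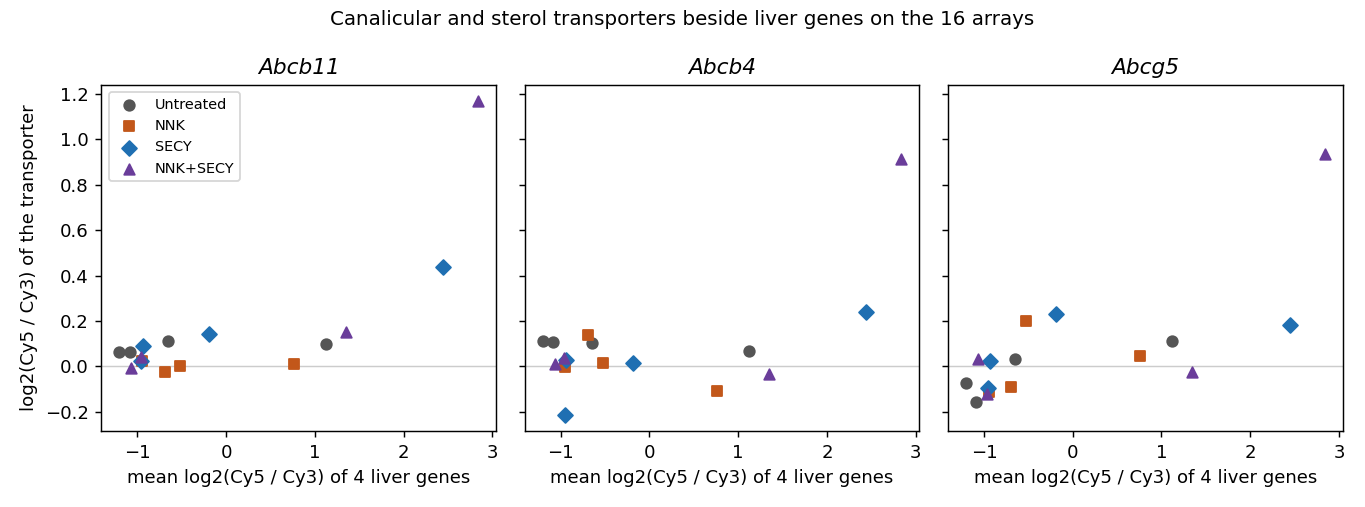
log2(Cy5/Cy3) of Abcb11, Abcb4 and Abcg5 against the mean log2(Cy5/Cy3) of 4 liver genes, one point per array and one colour and shape per group. NNK+SECY 3 is the point at 2.84 with values of 1.17, 0.91 and 0.93, and SECY 4 the point at 2.45.

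By subfamily, every group mean of the tested members lay between -0.11 and 0.12. The 7 tested C members averaged 0.02 ± 0.03 (SD, n = 4) in Untreated, 0.01 ± 0.04 in NNK, 0.06 ± 0.01 in SECY and 0.09 ± 0.02 in NNK+SECY. They include Abcc6, which entered the test through NNK+SECY alone, where its ratio was highest. The 4 D members averaged -0.01 ± 0.05, 0.02 ± 0.06, -0.11 ± 0.05 and -0.05 ± 0.02 in the same order of groups. On SECY 2, which had no usable Abcd3 value, the average was that of the other D members. The 9 B members averaged 0.07 ± 0.15 in NNK+SECY, where NNK+SECY 3 stood at 0.29, and -0.0038 ± 0.0045 (SD, n = 3) without that array. The A members averaged -0.04 ± 0.04 in Untreated and -0.03 ± 0.03 in NNK+SECY. The G members averaged -0.01 ± 0.04 and 0.04 ± 0.12, and without NNK+SECY 3 the latter was -0.01 ± 0.07 (SD, n = 3). At an unadjusted limma p under 0.05 the members counted 6 of 37 in SECY against Untreated, 6 in NNK+SECY against Untreated and 6 in NNK+SECY against NNK, beside 8.11%, 9.23% and 9.9% of genes. These counts, and the overlap counts below, take in all tested members. Abcc6, which entered the test through NNK+SECY alone, is among the 37, so the counts that involve that group are not free of the filter. The interaction had 1, Abcg1, beside 4.61%. Groups failed to overlap in SECY against Untreated for 4 members, Abcb6, Abcc1, Abcc9 and Abcg1, and for 4.15% of genes. This held in NNK+SECY against Untreated for 5, Abca8a, Abcb6, Abcc1, Abcg1 and Abcg8, and for 6.87% of genes. It held in NNK+SECY against SECY for 2, Abca1 and Abcd3, which both lacked SECY values, and for 3.01% of genes. The family median was 0.03 in NNK+SECY against Untreated, against 0.00 for all genes. Under the alternative settings that family median ran from 0.02 to 0.08, and its difference from all genes was not tested.

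The normalised Cy5 level on the log2 scale gives each gene's own brightness, which cannot be compared between probes. For Abcb6 it was 6.91 ± 0.11, 6.77 ± 0.09, 7.15 ± 0.11 and 7.03 ± 0.06 in Untreated, NNK, SECY and NNK+SECY lungs. The Abca8a level was 8.80 ± 0.16, 8.91 ± 0.18, 8.36 ± 0.20 and 8.34 ± 0.06, and that of Abcc1 8.21 ± 0.05, 8.18 ± 0.07, 8.26 ± 0.19 and 8.27 ± 0.08. For Abcg1 it was 11.04 ± 0.12, 10.78 ± 0.10, 10.77 ± 0.10 and 10.77 ± 0.02. The Abca8a levels of the 2 selenocystine groups did not overlap those of the NNK group, whereas the Abcc1 levels of all 4 groups overlapped. For Abcb6 the full separation of lungs with and without selenocystine, given above, is one of ratios and not of Cy5 levels.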

How the data were processed

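The 16 lung RNA samples were hybridised to 2-colour Agilent 44K arrays, 4 per group. Per the file headers, the authors extracted spot and background intensity with Agilent Feature Extraction 8.1.1.1. Those files also hold log10 ratios of red over green, per the file headers made from processed signals. The deposited table gives each array as log2 ratios, red over green with a median of 0, as setting it against the log10 ratios showed. Intensities were corrected with normexp (offset 50) and loess in limma 3.58.1 (R 4.3.3). Control spots and outlier flags were left out, and spots of 1 probe were averaged. Probes were named through RefSeq accession, symbol or synonym where these matched, and by the file's name otherwise.

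A limma model with 4 group means over 16 arrays gave 6 contrasts, with Benjamini-Hochberg adjustment over all tested genes and a threshold of 0.05. It was tested on simulated data first. P-values set each difference against the spread between samples within groups, taken over all 16 arrays and moderated across genes. The number of samples limits the precision. Cy5 and Cy3 changes come from loess and Aquantile scaled channels and have no test. Intervals are 95%.

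Named members were those called, 10 drug and sterol transporters whatever their values, and the 5 with the smallest unadjusted p in each comparison. Others named were chosen after their values were seen. Values of 2 tested members are not reported here. The members and lists were chosen with earlier results of these data known. The alternatives covered background, normalisation, filters, probe choice, weights, replicate and slide blocks, and each array left out.

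The replicate numbers were not taken as pairs. Promoters came from RefSeq (GRCm38.p6). Probe coordinates, whose build no header names, were not used. Python 3.11.15 and matplotlib 3.10.9 drew the figures.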

Additional observations from a re-analysis of the deposited data

Results flagged for a closer look

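In each of 35 tested members, the highest and lowest of the 4 arrays of a group were compared with the nearest other array. In 10 of 138 sets of member and group the gap, divided by the group's range, exceeded Dixon's 95% critical value for 4 samples, where chance gives about 1 in 20. Values are log2 ratios. On NNK+SECY 3, Abcb11 stood at 1.17 (the others from -0.01 to 0.15), Abcb4 at 0.91 (-0.03 to 0.04) and Abcg5 at 0.93 (-0.12 to 0.03). SECY 3 stood apart for Abcb8 at 0.18 (-0.22 to -0.16), Abcf2 at 0.21 (-0.18 to -0.12), Abca5 at -0.23 (0.15 to 0.22) and Abcc9 at -0.18 (-0.12 to -0.11). Abcc1 stood at 0.16 on NNK+SECY 4, with the others from 0.01 to 0.03. Abcb10 stood at -0.20 on NNK 1, with the others from -0.31 to -0.30. Abcd2 stood at -0.071 on Untreated 3, with the others from -0.01 to 0.00.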

How the results depend on the processing

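No called value changed direction under any alternative. In SECY against Untreated, 2 members were called, and 1 (Abcb6) with processed signals, the authors' deposited table, median centring, the mean over probes or the replicate block, 0 where only the arrays compared set the spread, and 3 with array weights, Abca8a being added. In NNK+SECY against Untreated, 2 were called, 4 with array weights, and 3 with the replicate block, median centring or the mean over probes, Abcg1 being added in each of these. In NNK+SECY against NNK, 3 were called, and 2, Abcc1 being lost, with processed signals, the authors' deposited table, median centring, the mean over probes, only the arrays compared or the replicate block. Deviations of same-numbered arrays correlated above 0.1 in 3 of 4 pairs for Untreated with NNK and with SECY. They did so in 2 of 4 for Untreated with NNK+SECY and in 1 of 4 for the other group pairs. The correlations ran from -0.01 to 0.46 for Untreated with NNK and from -0.10 to 0.50 for Untreated with SECY. In both of these the same number was the best match in 3 of 4 pairs. Not every pair correlated, nor did every array correlate best with its own number, and the main model took no pairs. Leaving out 1 array in turn gave 1 to 3 members in each of these comparisons. The other 3 comparisons called 0 members under all alternatives run. Over all genes, the alternatives other than leaving out arrays called 1 to 99 genes for NNK against Untreated (68 in the report), 29 to 262 for SECY against Untreated (59), 255 to 528 for NNK+SECY against Untreated (339) and 265 to 550 for NNK+SECY against NNK (371). Leaving out arrays gave 18 to 131, 44 to 232, 164 to 428 and 279 to 496 in that order. Slide as a random block had a correlation of 0.12 and changed no member's call. As a fixed block it could be fitted only for NNK against Untreated, NNK+SECY against SECY and the interaction. SECY against Untreated and NNK+SECY against NNK each already lie within 1 scan day. A restriction to 19667 genes whose reference signal differed by at most 0.5 between groups, chosen after seeing the data, called the same members. Probes near background allow only small ratios after the offset, which limits dim members.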
